A study of Mus musculus with 11 samples.

Results

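The metastatic melanoma line 4C11+ was compared with the pre-malignant melanocyte line 4C, the most separated stages among the derived lines of a murine model of melanoma progression. The comparison took the 3 libraries titled 4C11+ and the 3 titled 4C out of 11 libraries in all, and every one of the 14272 deposited genes. Both lines descend from melan-a, an immortal line of mouse melanocytes, through cycles of detachment from the dish and re-adhesion. 4C is described as mesenchymal-like and 4C11+ as epithelial in morphology. When injected under the skin of mice, 4C11+ cells grow as tumors and give lung metastases. Both were cultured without the phorbol ester PMA, whereas melan-a had 200 nM of it in the medium. Each stage is represented by a single line with libraries from 3 cultures. A difference between the stages and a difference between these particular lines therefore cannot be told apart. The p-values measure the spread between cultures of the same line, pooled over the 11 libraries. The remaining lines, the non-metastatic melanoma 4C11− (3 libraries) and melan-a (2 libraries, replicates 2 and 3, with replicate 1 not analysed here), entered the fits to estimate the spread and are cited where they help to read a value.

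Melanocytes make the pigment melanin in melanosomes, organelles related to lysosomes, and the transcription factor MITF drives many of the genes needed for it, together with SOX10 and PAX3. Melanoma cells are known to move between a differentiated, MITF-high, proliferative state and a dedifferentiated, AXL-high, invasive state, a change called phenotype switching. The epithelial-mesenchymal transition (EMT) shares with it the regulators of the SNAIL, ZEB and TWIST families, which repress epithelial junction genes in carcinomas.

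The deposited values are log2 CPM, read counts scaled to library size, on which a difference of 1 is a doubling. All libraries also share their highest value, as after quantile normalization, and the 4C libraries share their lowest value. The depth of a library can therefore not be read from these values. Reads were counted from the steps of the lowest values, where 1 read sets the step. A library of 4C11+ had 579 to 711 genes at its lowest value, against 226 to 248 in 4C. Genes with no library of a line above 3 reads are called absent from that line, and their change is given as a lower bound from the value at 3 reads. The cell identity was checked with marker genes. All 8 melanocyte markers had a value, and their summed level was 11300 to 13600 CPM in 4C11+ against 3.85 to 7.65 CPM in 4C, where *Tyr* and *Sox10* were absent, so the 4C libraries carried almost none of the transcripts that define a melanocyte. Of 9 fibroblast markers the 3 with a value (*Pdgfra*, *Col1a1* and *Col3a1*) summed to 2020 to 2210 CPM in 4C and 8.3 to 9.5 CPM in 4C11+, with *Col3a1* absent from 4C11+. Keratinocyte (2 of 7 measured), leukocyte (2 of 8) and endothelial markers (2 of 7) summed to at most 21.2 CPM in any of the 6 libraries, and *Krt10* and *Cdh5* were absent from 4C11+. The 5 measured of 7 Schwann cell markers summed to 104 to 131 CPM in 4C and 490 to 744 CPM in 4C11+, with *Egr2* absent from 4C11+. The part of these cell types in the results was not tested. The values of a library are means over its cells, so fewer cells of a kind and less RNA per cell cannot be told apart.

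In total, 4528 genes passed the test (limma, adjusted p under 0.05), which is 31.7% of the genes, with 2442 higher (17.1%) and 2086 lower (14.6%) in 4C11+. Leaving out 4C replicate 2, 4C11+ replicate 1 or 4C11+ replicate 2 lowered the number of higher genes to 1614, 1564 and 1561. The changes were large. Over 4 on the log2 scale, 418 genes rose and 492 fell, and the median difference was 1.61 for the genes that rose and -2.29 for those that fell, against 0.08 over all genes. The 3 libraries of one line did not overlap with those of the other for 4035 higher genes (28.3%) and 3292 lower genes (23.1%). There were 743 genes present in 4C and absent from 4C11+, and 291 present in 4C11+ and absent from 4C. With a limit of 1 read instead of 3 these numbers were 530 and 189. In the 4C11+ libraries 3 reads stood at -0.24 to 0.15, against -1.61 to -1.01 in 4C. On the deposited scale a low gene thus counted as absent from 4C11+ more readily. The reason was not tested. With bounds over 2, 4 and 6 on the log2 scale, 366, 192 and 63 genes were absent from 4C11+, and 282, 168 and 71 from 4C. Across genes, libraries of the same line correlated at 0.948 to 0.974 (4C) and 0.955 to 0.981 (4C11+), and libraries of different lines at 0.711 to 0.762 over the 9 pairs.

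**Figure D1:**
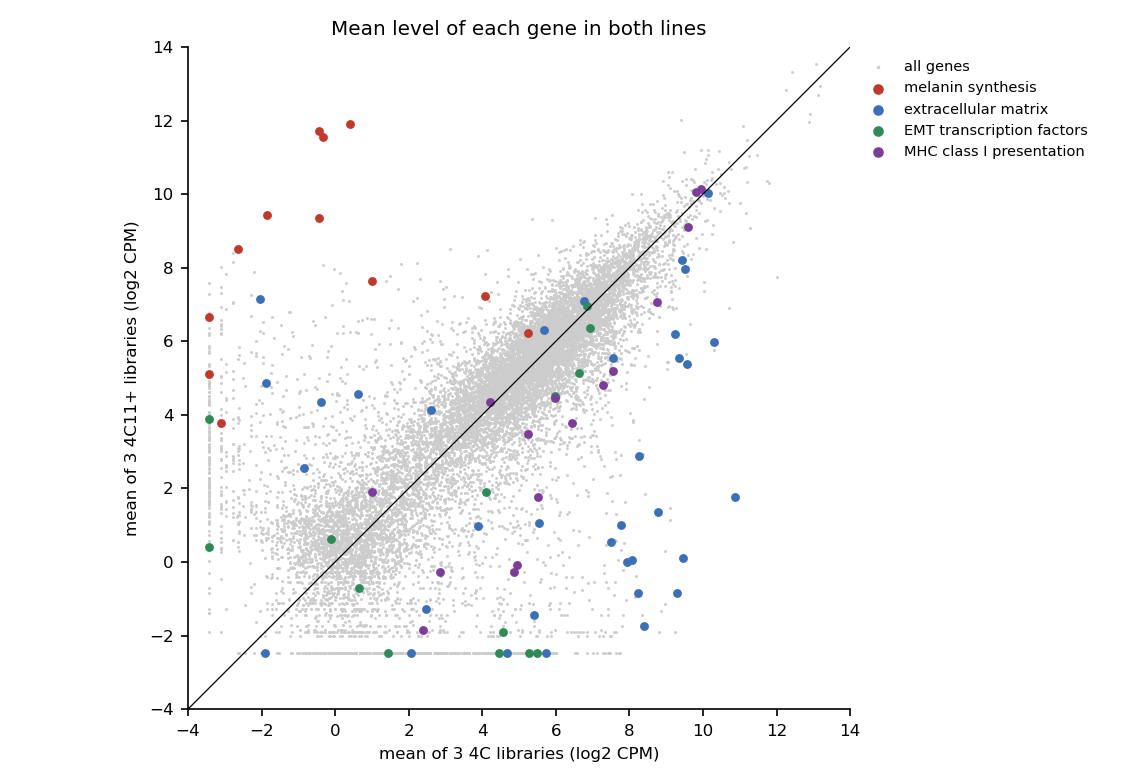
Mean log2 CPM of each gene over the 3 4C libraries (x axis) and the 3 4C11+ libraries (y axis), with 4 gene lists in color and the line of equal level. All 12 melanin genes lie above the line, 27 of the 35 matrix genes and 12 of the 16 MHC class I genes lie below it, and the rows of points at the left and the bottom are genes at the lowest value of the libraries.

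The 15 higher and 15 lower genes with the largest differences were of many kinds, with *Dct*, *Tyrp1*, *Pmel* and *Mlana* at the head of the higher ones and *Krt18* at the head of the lower ones. All 30 passed in every alternative fit that included them. Apart from melanin genes and *Sox10*, the largest increases were in *Rab38* (a RAB GTPase of melanosome traffic), *Fabp5* (a fatty acid binding protein), *Prkcq* (protein kinase C theta), *Car6* (a secreted carbonic anhydrase), *Nrcam* (a neuronal adhesion molecule), *Bfsp2*, *Unc5c* (a netrin receptor), *Celf2* (an RNA-binding protein) and *Cdh2* (N-cadherin). All 9 were absent from 4C. *Rab38* was at least 9.66 higher on the log2 scale, *Fabp5* 9.71, *Prkcq* 8.85, *Car6* 9.41, *Nrcam* 9.10, *Bfsp2* 8.54, *Unc5c* 8.73, *Celf2* 8.56 and *Cdh2* 8.02. For *Fabp5* the 4C11+ libraries had 8.47, 8.49 and 8.40, whereas the 4C libraries had -1.99, -3.44 and -2.44. Its 4C11+ values lay close together.

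Among the lower genes, *Krt18* (keratin 18) had 9.40, 9.36 and 8.94 in 4C and was absent from 4C11+, a decrease of at least 9.21. It is an epithelial keratin, and it was high in 4C, the mesenchymal-like line. *Lamc3* (a laminin chain) fell by at least 8.79, *Anxa8* (an annexin) by at least 7.71, *F2r* (the thrombin receptor PAR1) by at least 7.70, and *F5* (coagulation factor V) by at least 7.38. *Fmod* and *Bgn*, small proteoglycans that bind collagen, fell by at least 8.84 and 9.26. *Igfbp5* and *Igfbp2*, which bind insulin-like growth factors, fell by at least 7.61 and 8.30, and *Ccn5*, a matricellular protein, by at least 7.43. The protocadherin *Fat4* fell by at least 7.44, the surface protein *Ly6a* (Sca-1) by at least 7.32 and *Gas6*, the ligand of the TAM receptors, by at least 8.32. *Gas6* had 8.65, 8.17 and 8.22 in 4C and -2.44, -0.70 and -1.16 in 4C11+.

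Of the 12 genes of the melanin list, 11 rose and none fell (17.1% and 14.6% of all genes did). Their median difference was 9.95, or 8.85 with absent genes at their bounds, against 0.08 over all genes. The enzymes came first. *Tyr*, which encodes the rate-limiting tyrosinase, had -3.44, -2.44 and -2.01 in the 4C libraries and 8.46, 8.39 and 8.70 in the 4C11+ libraries, an increase of at least 9.77 from absence. *Dct*, the dopachrome tautomerase, had 0.87, 0.26 and -2.44 in 4C and 11.81, 11.39 and 11.91 in 4C11+, a difference of 12.14 ± 0.82 (SE, adjusted p = 7.39e-07 in limma). *Tyrp1*, the related melanosomal enzyme, had -0.04, -1.01 and 0.07 against 11.64, 11.64 and 11.39, a difference of 11.88 ± 1.07 (SE). No 4C library had more than 11 reads of any of these 3 genes, whereas they were abundant in every 4C11+ library.

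*Pmel*, which forms the amyloid fibrils of the melanosome matrix, had 0.60, -0.42 and 1.05 in 4C and 12.20, 11.72 and 11.81 in 4C11+. *Mlana*, a melanosomal membrane protein, had -2.44, -2.44 and -0.70 against 9.48, 9.54 and 9.26. *Oca2*, which sets melanosome pH, had -3.44, -3.44 and -2.44 against 3.63, 3.35 and 4.33, at least 5.03 higher. No library of one line overlapped with the other for any of these genes. The transporter *Slc45a2* rose by 9.80 ± 0.80 (SE), *Slc24a5* by 6.63 ± 0.71, the receptor *Gpr143* from absence by at least 6.36 and the tetraspanin *Tspan10* from absence by at least 7.93. The cystine transporter *Slc7a11*, which is expressed well beyond melanocytes, rose by 3.15 ± 0.72. The copper pump *Atp7a* was the one gene of the list that did not pass (0.98 ± 0.47, limma adjusted p = 0.134), with 4.95, 5.17 and 5.58 in 4C and 5.87, 5.82 and 6.94 in 4C11+.

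**Figure D2:**
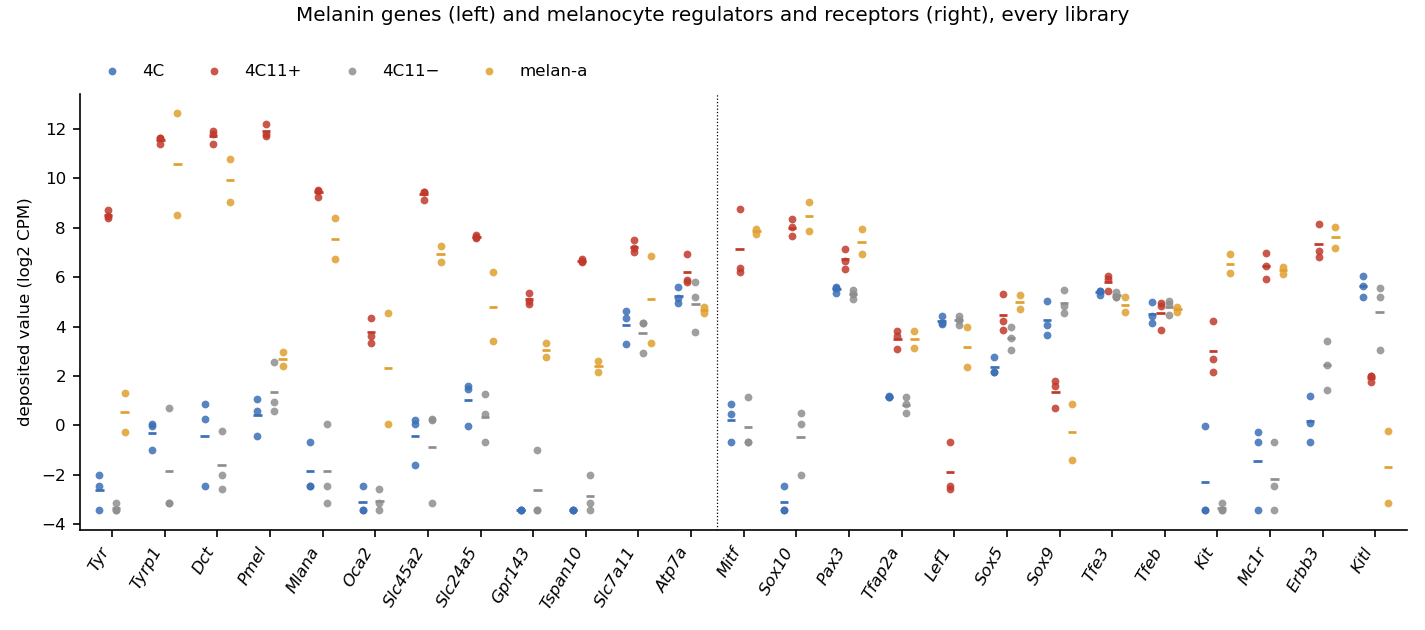
Log2 CPM of the melanin genes and of melanocyte regulators and receptors in every library, with a point per library, a bar at the mean of each line and the lines in color. The 4C11+ points of *Tyr*, *Tyrp1*, *Dct*, *Pmel* and *Mlana* lie between 8.39 and 12.20, whereas the 4C points lie at or below 1.05, and *Lef1*, *Sox9* and *Kitl* run the other way.

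In pigment cells MITF is known to bind the M-box, a motif with the letters TCATGTG that contains the E-box core CATGTG. The promoter table (RefSeq, GRCm38.p6, 250 bases before to 50 after the start, 1 promoter a gene) matched 9928 of the 14255 tested genes with a symbol and 8 of the 12 melanin genes. The letters stood, on either strand, in the promoters of 6 of these 8 genes (*Tyr*, *Tyrp1*, *Dct*, *Slc24a5*, *Tspan10* and *Slc7a11*) and not in those of *Oca2* and *Atp7a*. Over the promoters of all tested genes the share was 2.1%, over the genes that rose 2.3%, over those that rose by more than 4 on the log2 scale 4.9%, and over those that fell 2.3%. The share with CATGTG, which every M-box holds, was 8.4%, 8.3%, 12.9% and 7.9% in the same order, and with the other E-box CACGTG it was 10.2%, 9.5%, 5.8% and 9.1%. Among the genes that fell by more than 4 the shares were 1.9% for the M-box, 9.4% for CATGTG and 7.4% for CACGTG. Of all 27025 promoters available for search, 3.7% held the M-box letters, 14.1% CATGTG and 7.2% CACGTG. These are matches of letters, not sites shown to be bound. The 5 promoters below belong to genes with at most 22 reads in any 4C library that were high in 4C11+, and capitals mark the M-box letters on the strand of the gene, TCATGTG or its reverse complement CACATGA.
Tyr (chr7:87493463-87493762, minus strand): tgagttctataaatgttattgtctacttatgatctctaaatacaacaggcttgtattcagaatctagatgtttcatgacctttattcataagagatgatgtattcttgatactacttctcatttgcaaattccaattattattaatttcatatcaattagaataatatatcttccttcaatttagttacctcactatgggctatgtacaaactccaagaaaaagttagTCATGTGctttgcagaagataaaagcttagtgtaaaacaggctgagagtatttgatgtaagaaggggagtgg
Tyrp1 (chr4:80833963-80834262, plus strand): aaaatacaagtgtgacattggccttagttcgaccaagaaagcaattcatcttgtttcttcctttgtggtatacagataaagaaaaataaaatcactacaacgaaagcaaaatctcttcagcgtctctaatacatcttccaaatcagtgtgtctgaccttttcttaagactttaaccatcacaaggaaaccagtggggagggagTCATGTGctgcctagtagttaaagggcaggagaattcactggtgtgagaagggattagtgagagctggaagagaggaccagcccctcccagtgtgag
Dct (chr14:118052197-118052496, minus strand): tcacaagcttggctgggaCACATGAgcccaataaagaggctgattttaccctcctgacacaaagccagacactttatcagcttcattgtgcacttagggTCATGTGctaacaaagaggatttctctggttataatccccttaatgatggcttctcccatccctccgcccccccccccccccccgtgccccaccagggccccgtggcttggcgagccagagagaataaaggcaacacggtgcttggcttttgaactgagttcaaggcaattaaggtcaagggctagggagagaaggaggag
Slc24a5 (chr2:125067877-125068176, plus strand): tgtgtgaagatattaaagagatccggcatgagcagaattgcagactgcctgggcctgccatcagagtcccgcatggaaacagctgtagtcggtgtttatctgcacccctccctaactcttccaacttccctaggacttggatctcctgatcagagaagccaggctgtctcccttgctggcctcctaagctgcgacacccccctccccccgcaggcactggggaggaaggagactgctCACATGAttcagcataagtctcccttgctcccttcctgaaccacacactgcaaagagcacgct
Tspan10 (chr11:120442381-120442680, plus strand): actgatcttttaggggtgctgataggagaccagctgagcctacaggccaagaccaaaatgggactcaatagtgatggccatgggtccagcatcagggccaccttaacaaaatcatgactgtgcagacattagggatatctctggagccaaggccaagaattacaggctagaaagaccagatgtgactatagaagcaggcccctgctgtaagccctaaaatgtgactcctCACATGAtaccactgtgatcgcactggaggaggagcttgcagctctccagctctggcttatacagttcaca

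In 4 of these 5 promoters the motif lay close to the start. Counted from the annotated start site to the first base of the match, it began at -22 in *Tyr*, -47 in *Tyrp1*, -13 in *Slc24a5* and -21 in *Tspan10*. *Dct* held the letters at -232 and -151.

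Of the 23 genes of melanosome biogenesis and transport, 12 rose and none fell, with a median of 1.05. *Rab32*, which acts with *Rab38* in the delivery of melanin enzymes, had 1.13, -1.01 and 0.07 in 4C and 6.29, 6.21 and 6.14 in 4C11+. *Rab27a* rose by 4.34 ± 0.45 and *Mreg* by 3.76 ± 0.34 (SE). *Mlph*, the link between RAB27A and myosin Va, rose by 1.93 ± 0.43. *Myo5a* itself rose by 1.67 ± 0.51, a call that was lost when any one of 5 of the 6 libraries was left out and that held without 4C11+ replicate 2. In contrast, *Hps1*, *Hps4* and *Lyst* had differences of -0.13, -0.47 and 0.10 and did not pass.

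Of the 13 measured lineage regulators, 8 rose and 3 fell. *Mitf*, the master regulator of the lineage, had 0.87, -0.70 and 0.44 in 4C and 6.38, 6.23 and 8.76 in 4C11+, a difference of 6.92 ± 0.71 (SE, limma adjusted p = 2.08e-05). 4C11+ replicate 3 was more than 2 log2 units above the other 2 libraries of its line, although the melanin enzymes did not differ between them in this way. *Sox10*, a neural crest factor, had -3.44, -3.44 and -2.44 against 8.02, 7.68 and 8.34, at least 9.27 higher. *Pax3*, which acts upstream of *Mitf*, was present in both lines, with 5.37, 5.60 and 5.55 in 4C and 6.64, 6.34 and 7.16 in 4C11+ (1.21 ± 0.29, SE). In 4C *Sox10* was thus absent, *Mitf* reached at most 11 reads in a library and *Pax3* was well detected.

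*Tfap2a* rose by 2.35 ± 0.37 and *Sox5* by 2.10 ± 0.42 (SE). The receptors of the lineage rose as well. The melanocortin receptor *Mc1r* had -3.44, -0.70 and -0.25 in 4C and 6.44, 5.92 and 6.97 in 4C11+, *Erbb3* rose by 7.17 ± 0.59 and *Kit* by 5.33 ± 0.87. The related factors *Tfe3* (0.41 ± 0.25) and *Tfeb* (0.04 ± 0.34) did not pass. Those that fell were the Wnt effector *Lef1*, absent from 4C11+ and at least 4.19 lower, *Sox9* (-2.90 ± 0.59), and *Kitl*, the ligand of KIT (-3.71 ± 0.74). Ligand and receptor of the KIT pair therefore moved in opposite directions, with *Kitl* at 5.21, 5.66 and 6.05 in 4C and 2.00, 2.01 and 1.77 in 4C11+.

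The list of genes of the proliferative melanoma state had 28 of 41 measured members higher and 5 lower (median 2.06), and the list of the invasive state had 2 of 33 higher and 25 lower (median -1.92). The lower count of the proliferative list was 3 without 4C replicate 3 or 4C11+ replicate 2. The proliferative list shares 9 genes with the melanin list or the lineage list, among them *Dct*, *Tyr* and *Mitf*. It also shares *Rab38*, *Rab27a* and *Hps4* with the list of melanosome biogenesis and transport. Outside the pigment genes, *Apoe* (apolipoprotein E) had 3.48, 2.44 and 3.42 in 4C and 8.48, 8.45 and 8.62 in 4C11+, the cell cycle kinase *Cdk2* rose by 1.31 ± 0.28 (SE), and the phosphatase *Inpp4b* and the channel *Trpm1* rose from absence by at least 5.68 and 5.78. *Dapk1* (a death-associated kinase), *Galnt3* and *Myo1d* ran against the list and were absent from 4C11+, by at least 2.96, 2.49 and 3.36 lower.

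Of the invasive genes, the receptor kinase *Axl* had 8.62, 9.16 and 9.36 in 4C and 5.24, 5.59 and 5.52 in 4C11+, a difference of -3.60 ± 0.40 (SE, limma adjusted p = 4.07e-05). *Fst* (follistatin), *Itga3*, *Zeb1*, *Foxf2*, *Podxl* and *Crispld2* had the largest decreases. *Fst* was absent from 4C11+ and at least 5.45 lower, and *Foxf2* and *Crispld2* at least 5.09 and 6.10. *Itga3*, an integrin chain for laminins, fell from 8.76, 9.18 and 9.36 to 1.70, 1.68 and 1.03. Both exceptions were strong, since the metalloprotease *Adam12* and the cadherin *Cdh13* were absent from 4C and at least 6.38 and 4.64 higher in 4C11+.

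**Figure D3:**
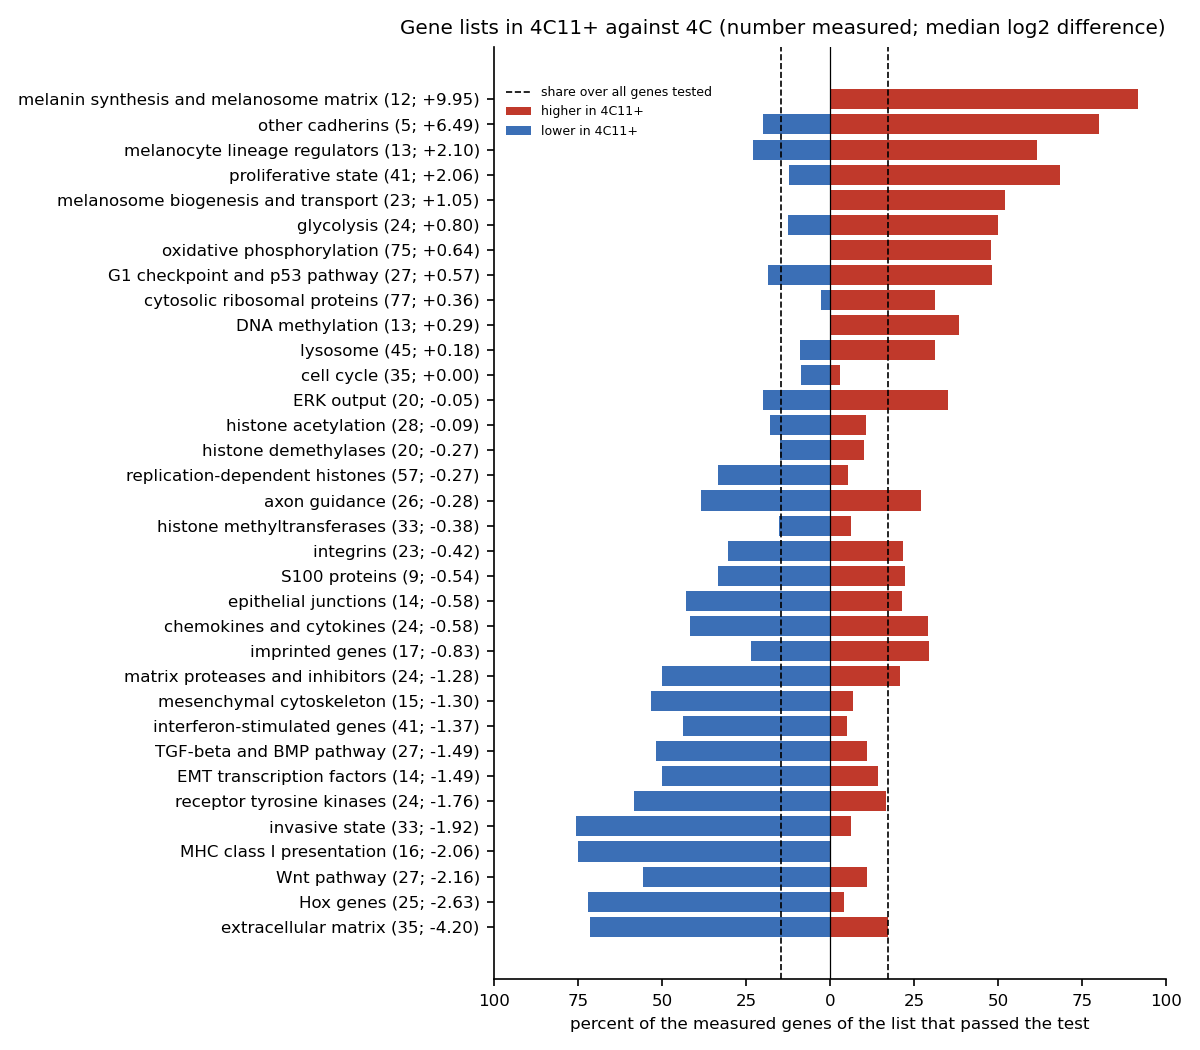
Share of the measured genes of each list that passed the test as higher (red, right) or lower (blue, left) in 4C11+, ordered by the median difference, which stands in parentheses after the number of measured genes. The dashed lines are the shares over all genes, 17.1% and 14.6%, and the melanin list (91.7% higher), the list of other cadherins (80.0% higher, 5 genes) and the invasive, MHC class I, Hox and matrix lists (71.4% to 75.8% lower) lie far beyond them.

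Of the 14 measured EMT transcription factors, 7 fell and 2 rose. *Snai1* had 4.36, 4.95 and 4.42 in 4C and was absent from 4C11+, at least 4.55 lower. *Zeb1* had 4.59, 5.37 and 5.83 and was at least 5.24 lower, *Twist2* at least 4.42, *Prrx2* at least 5.47 and *Twist1*, which was low in 4C too, at least 1.40. *Foxc1* and *Klf4* fell by 1.48 and 2.20 and stayed detected. *Zeb2*, the ZEB factor of normal melanocytes, was detected in all 6 libraries with 6.35, 6.88 and 7.29 in 4C and 6.60, 5.96 and 8.33 in 4C11+ (0.12 ± 0.67, limma adjusted p = 0.909). *Snai2*, the SNAIL factor of the melanocyte lineage and 1 of the 2 genes that rose, was at 0 reads in every 4C library and low in 4C11+ (0.15, 0.15 and 0.88, with at most 8 reads). The highest difference in the list, 7.32, belonged to another gene that is not reported here. Members of the same families therefore split, with *Zeb1*, *Snai1* and both TWIST genes detected in 4C and absent from 4C11+, *Zeb2* detected in both lines and *Snai2* detected at a few reads in 4C11+.

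The epithelial junction list did not rise as a whole (median -0.58). Of its 14 measured genes 3 were higher (21.4%) and 6 lower (42.9%), against 17.1% and 14.6% of all genes. Leaving out 4C replicate 2, 4C11+ replicate 1 or 4C11+ replicate 2 left 3 lower members, and leaving out 4C replicate 1 or 4C replicate 3 left 4. *Cdh1* (E-cadherin) stayed near the detection limit in both lines, with -1.99, -2.01 and -0.70 in 4C and 0.44, -0.23 and -0.70 in 4C11+, and did not pass (limma adjusted p = 0.0979). *Pkp2* (plakophilin 2) rose from absence by at least 4.07, and *Tjp3* was at least 2.69 higher. *Jup* (plakoglobin) fell from 7.68, 7.57 and 7.94 to 2.09, 2.67 and 2.32, and *Ocln* (occludin) fell by at least 2.66.

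Among the other cadherins, 4 of 5 rose. *Cdh2*, a mesenchymal cadherin in carcinomas, was at 0 reads in the 4C libraries and had 6.71, 6.72 and 6.84 in 4C11+. *Cdh19*, a neural crest cadherin, had 4.65, 4.31 and 6.52 in 4C11+ and was absent from 4C. *Cdh5*, the endothelial cadherin, had 4.01, -0.70 and 0.44 in 4C, so that 1 library carried most of it, and was absent from 4C11+.

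Of the 35 measured genes of the extracellular matrix list, 25 fell and 6 rose, with a median of -4.20 (-3.80 with absent genes at their bounds). The fibrillar collagen *Col1a1* had 10.80, 10.91 and 10.91 in 4C and 2.17, 1.78 and 1.32 in 4C11+, a difference of -9.12 ± 0.23 (SE, limma adjusted p = 1.59e-09). *Col3a1* was absent from 4C11+ (at least 5.38 lower), *Col5a1* fell by 4.32, and the chains of collagen VI fell together, *Col6a1* by 9.33 and *Col6a2* by at least 8.37. *Fbn1* (fibrillin 1) fell by 8.02 and *Tnc* (tenascin C) by at least 8.21. The lysyl oxidases that cross-link collagen did not move as one. *Lox*, *Loxl1* and *Loxl2* were absent from 4C11+, at least 4.66, 5.70 and 2.45 lower, and *Loxl3* had 5.29, 5.80 and 5.94 in 4C and 6.17, 6.21 and 6.53 in 4C11+ and did not pass.

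The 6 that rose were mostly components of basement membranes. They were *Col4a1* (3.95 ± 0.92, SE), *Col4a2* (1.55 ± 0.45), the laminin chains *Lama4* (9.20 ± 0.69) and *Lamb1* (4.74 ± 0.58), *Nid1* (nidogen 1, 6.76 ± 0.81) and *Postn* (periostin, 3.39 ± 1.07). The call of *Postn* was lost without any one of 5 libraries and that of *Col4a2* without any one of 3 (4C replicates 2 and 3 and 4C11+ replicate 2). *Lama4* had -0.25, -2.44 and -3.44 in 4C and 6.91, 6.93 and 7.62 in 4C11+, and *Nid1* had -1.99, -3.44 and -0.25 against 5.03, 4.95 and 4.63. Basement membrane genes fell too, namely *Lama5* (-4.20 ± 0.46) and *Nid2* (-5.39 ± 0.34), so that the laminin alpha and nidogen genes in use differed between the lines. *Sparc* (9.74, 10.07 and 10.60 against 10.12, 9.94 and 10.03) did not pass.

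In the contractile and mesenchymal cytoskeleton list 8 of 15 fell and 1 rose. *Acta2* (smooth muscle actin) had 8.13, 8.81 and 9.96 in 4C and was absent from 4C11+, at least 8.94 lower. *Tagln* (transgelin) was at least 5.05 lower, and *Cnn2*, *Cald1*, *Flna* and *Myh9* fell by 2.51, 2.34, 1.41 and 1.48 from levels of at least 7.98 in every 4C library. *Vim* (vimentin), a standard mesenchymal marker, rose instead, from 10.22, 10.34 and 9.85 to 11.15, 10.91 and 11.15 (0.94 ± 0.24, SE, limma adjusted p = 0.0112).

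Among matrix proteases and their inhibitors 12 of 24 fell and 5 rose. *Mmp2* had 7.17, 7.20 and 8.47 in 4C and 3.27, 2.81 and 2.92 in 4C11+, *Mmp14* fell by 1.90 ± 0.43 (SE) and *Mmp19* by 4.56 ± 0.47. *Adamts9* rose by 3.95 ± 0.42 and *Mmp15* by 3.11 ± 0.59. Of 23 integrin and focal adhesion genes 7 fell (30.4%) and 5 rose (21.7%), the latter near the share over all genes. Beside *Itga3*, the collagen receptor *Itga11* fell by 6.19 ± 0.85, whereas *Itga8*, *Itgb8* and *Itgb4* rose from absence by at least 4.27, 3.30 and 4.02 and *Itga6* rose by 1.56 ± 0.24. The common subunits *Itgb1* (-0.42 ± 0.25) and *Itgav* (-0.23 ± 0.34) did not pass.

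Of 24 receptor tyrosine kinases 14 fell and 4 rose, with a median of -1.76. The largest decrease was in the FGF receptor *Fgfr2*, which had 6.52, 7.01 and 7.04 in 4C and 0 reads in all 3 libraries of 4C11+ (at least 6.83 lower). *Fgfr2* had 6.77 ± 0.16 (SD, n = 3) in 4C11− and 6.86 in the mean of the 2 melan-a libraries, so among the 4 lines its transcript was missing in 4C11+ alone. *Egfr* was absent from 4C11+ and at least 4.22 lower, *Ror1* at least 3.99, and *Pdgfra* fell by 5.18 ± 0.49 (SE), *Ephb2* by 4.30 ± 0.36 and *Fgfr1* by 4.09 ± 0.44. Those that rose were *Kit* and *Erbb3* (above), *Met*, the receptor of hepatocyte growth factor (5.34, 5.29 and 5.57 against 7.07, 6.84 and 7.59), and *Flt4*, from absence by at least 2.06.

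Of the 20 genes that report ERK output 7 rose and 4 fell (median -0.05), with 4 higher without 4C replicate 2. The feedback genes split. The phosphatases *Dusp4* and *Dusp6* rose by 1.71 ± 0.47 and 1.55 ± 0.39 (SE) and *Spry2* by 1.88 ± 0.43, and *Dusp5* was at least 4.73 lower and *Spry1* fell by 1.98 ± 0.36. The call of *Dusp4* was lost without 4C11+ replicate 1 or 2 and that of *Dusp6* without 4C replicate 2.

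In the Wnt pathway 15 of 27 fell and 3 rose (median -2.16). The ligands *Wnt4* and *Wnt6* fell by 5.71 ± 0.43 and 5.80 ± 0.34 (SE), and *Wnt5a*, *Wnt7b* and *Wnt11* were absent from 4C11+ and at least 4.11, 4.94 and 4.87 lower. The target genes *Axin2* (5.89, 6.42 and 6.11 in 4C against 3.41, 2.96 and 3.60 in 4C11+) and *Nkd1* (at least 4.18 lower) fell as well, as did the inhibitor *Wif1* (at least 6.57 lower). The co-receptors *Lrp5* (0.23 ± 0.26) and *Lrp6* (0.53 ± 0.34) did not pass.

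In the TGF-beta and BMP pathway 14 of 27 fell and 3 rose (median -1.49). Among the ligands, *Bmp7* had 7.62, 7.92 and 7.82 in 4C and was absent from 4C11+ (at least 7.76 lower), and *Inhbb* and *Bmp4* were at least 5.90 and 4.95 lower. The latent TGF-beta binding proteins *Ltbp1* and *Ltbp2* fell by 6.59 ± 0.42 (SE) and by at least 7.40, and the BMP antagonist *Nog* by at least 4.43. *Tgfb1* (-1.61 ± 0.79) and the receptors *Tgfbr1* (0.77 ± 0.48) and *Tgfbr2* (-0.54 ± 0.27) did not pass. The target *Id1* fell by 3.21 ± 0.47 and *Id2* rose by 2.21 ± 0.42.

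Among 26 axon guidance genes 10 fell (38.5%) and 7 rose (26.9%), against 14.6% and 17.1% of all genes (median -0.28). *Ntn1* (netrin 1) fell from 6.70, 7.18 and 6.80 to -2.44, -0.70 and 0.07, whereas its receptor *Unc5c* rose from absence to 7.16, 6.74 and 8.53. *Slit3* was at least 4.81 lower and *Sema6d* at least 3.52 higher. Of 9 measured S100 genes 3 fell (33.3%) and 2 rose (22.2%). *S100a6* fell by 5.44 ± 0.32 (SE), and *S100b*, a clinical melanoma marker, rose from -2.44, -0.42 and -0.70 to 6.30, 6.28 and 6.14.

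Of 41 interferon-stimulated genes 18 fell and 2 rose, with a median of -1.37. *Ifitm1* had 5.95, 5.48 and 6.21 in 4C and 0 reads in all 3 4C11+ libraries, at least 5.86 lower. *Irf1* fell by 1.48 ± 0.33 (SE), *Ifit1* by 2.33 ± 0.39, and the RNA sensor *Ifih1* (MDA5) by 4.01 ± 0.91. *Zbp1* and *Oasl2* were at least 2.24 and 2.80 lower. The signaling factor *Stat2* had a difference of 0.06 ± 0.43 and did not pass. The chemokine *Cxcl10* ran the other way, with 0.20, -1.01 and -3.44 in 4C and 2.69, 5.90 and 4.99 in 4C11+. *Mx1* was the other gene that rose (2.97 ± 0.93), a call lost without any one of 4 libraries.

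MHC class I presentation had 12 of 16 members lower and none higher (median -2.06). *Nlrc5*, the transactivator of these genes, had 4.16, 5.14 and 5.31 in 4C and was absent from 4C11+, at least 4.85 lower. *B2m*, the light chain, fell from 8.18, 8.72 and 9.39 to 7.15, 6.99 and 7.08, *H2-K1* fell by 3.73 ± 0.68 (SE) and *H2-D1* by 2.47 ± 0.64. The class I heavy chain genes are close in sequence, so their reads may be shared among them. The peptide transporter subunit *Tap2* fell by 5.04 ± 0.56 and the peptidase *Erap1* by 2.64 ± 0.37, and the immunoproteasome subunit *Psmb9* by at least 2.83. The general chaperones *Calr* (0.25 ± 0.30) and *Canx* (0.20 ± 0.33) and *Psmb10* (0.15 ± 0.35), named after their values were seen, did not pass. The decrease spanned the transactivator, the heavy and light chains, peptide transport and trimming, and not those chaperones.

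Of 24 measured chemokines, cytokines and receptors 10 fell (41.7%) and 7 rose (29.2%), against 14.6% and 17.1% of all genes. *Il1r1* fell from 6.31, 6.50 and 6.69 to 0.84, -0.70 and -2.58, *Cxcl14* was at least 4.62 lower, and *Tslp* rose from 0 reads by at least 2.48.

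The 35 genes of replication and mitosis had a median of 0.00, with 1 higher (*Ccnb2*, 1.18 ± 0.23, SE) and 3 lower, of which *Top2a* had the largest difference (-2.12 ± 0.62, limma adjusted p = 0.0219). All 3 lower calls were lost without 4C replicate 2, 4C11+ replicate 1 or 4C11+ replicate 2, and without 4C replicate 1 the list had 5 higher genes. *Mki67* had 8.28, 10.05 and 9.07 in 4C and 7.34, 6.34 and 8.78 in 4C11+, and these ranges overlapped.

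The G1 checkpoint and p53 list moved far more, with 13 of 27 higher and 5 lower. *Cdkn1a* (p21), a classical p53 target, had 3.31, 2.85 and 2.92 in 4C and 7.47, 7.46 and 7.46 in 4C11+, a difference of 4.44 ± 0.56 (SE, limma adjusted p = 9.65e-05). *Ccng1* (cyclin G1) rose from 5.92, 5.90 and 5.88 to 9.24, 9.26 and 9.40, *Mdm2* by 2.37 ± 0.22, and *Trp53inp1*, *Zmat3* and *Sesn2* by 2.31, 2.02 and 2.00. *Trp53* itself fell, from 6.73, 6.71 and 6.73 to 4.65, 4.75 and 6.26 (-1.50 ± 0.36, limma adjusted p = 0.00773), with 4C11+ replicate 3 close to the 4C level. The targets in that library were as high as in the other 4C11+ libraries for *Cdkn1a* and *Ccng1*. For comparison, *Cdkn1a* averaged 3.29 in 4C11− and 3.27 in melan-a, and *Ccng1* 5.11 and 5.36, so these levels were high in 4C11+ alone.

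*Cdkn2a*, which encodes the tumor suppressors p16INK4a and p19ARF, had 6.57, 6.32 and 6.81 in 4C and was absent from 4C11+ (-0.70, -2.44 and -2.58), at least 6.54 lower. Its neighbor *Cdkn2b* (p15INK4b) had 4.61, 4.54 and 4.86 and 0 reads in all 3 4C11+ libraries, at least 4.65 lower. Both belonged to a run of 4 neighboring measured genes that fell (chr4:89274471-89463487, GENCODE vM21, GRCm38) with *Gm12609* and *Gm12610*. The next measured gene on one side, *Mtap*, had 7.47, 7.19 and 6.97 in 4C and 8.40, 8.43 and 8.49 in 4C11+ and thus rose (1.23, limma adjusted p = 0.000449). In 4C11− and melan-a, *Cdkn2a* averaged 7.30 and 6.97 and *Cdkn2b* 5.15 and 4.58.

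Histone genes of the replication-dependent kind lie in clusters and were taken by symbol. Of 57 measured, 19 fell and 3 rose, and the decrease was concentrated in place. At one end of the Hist1 cluster 12 neighboring measured genes, from *Hist1h2bl* to *Hist1h2bp* (chr13:21715763-21789213, GRCm38), all fell, with differences from -8.95 to -4.41 and a median of -7.70. The linker histone *Hist1h1b* had 8.04, 8.26 and 7.41 in 4C and -0.70, 0.15 and -2.58 in 4C11+, at least 7.88 lower, and *Hist1h2bm* fell by at least 7.41. Of the 12 genes 10 were absent from 4C11+. Their mean levels in the remaining lines had medians of 7.14 in 4C11− and 5.85 in melan-a, against 6.41 in 4C and -1.35 in 4C11+.

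The measured gene before this run, *Zkscan8*, had 4.03, 5.45 and 5.40 in 4C and 3.74, 2.91 and 4.91 in 4C11+ and did not pass. After it came *Hist1h4m*, low in all 6 libraries, and then *Hist1h4n*, which was absent from 4C11+ and at least 6.27 lower. Beyond these, most genes of the cluster were alike in both lines, for example *Hist1h4d* (9.47, 9.40 and 8.41 against 8.88, 9.02 and 9.26), although *Hist1h3b* (-6.22 ± 0.47, SE), *Hist1h3d* (-5.78 ± 0.87) and *Hist1h2bf* (-5.00 ± 0.52) fell among neighbors that did not. Histone genes are near copies of each other, so reads may be split between them and single values are uncertain. The genes of this paragraph were named after their values were seen.

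**Figure D4:**
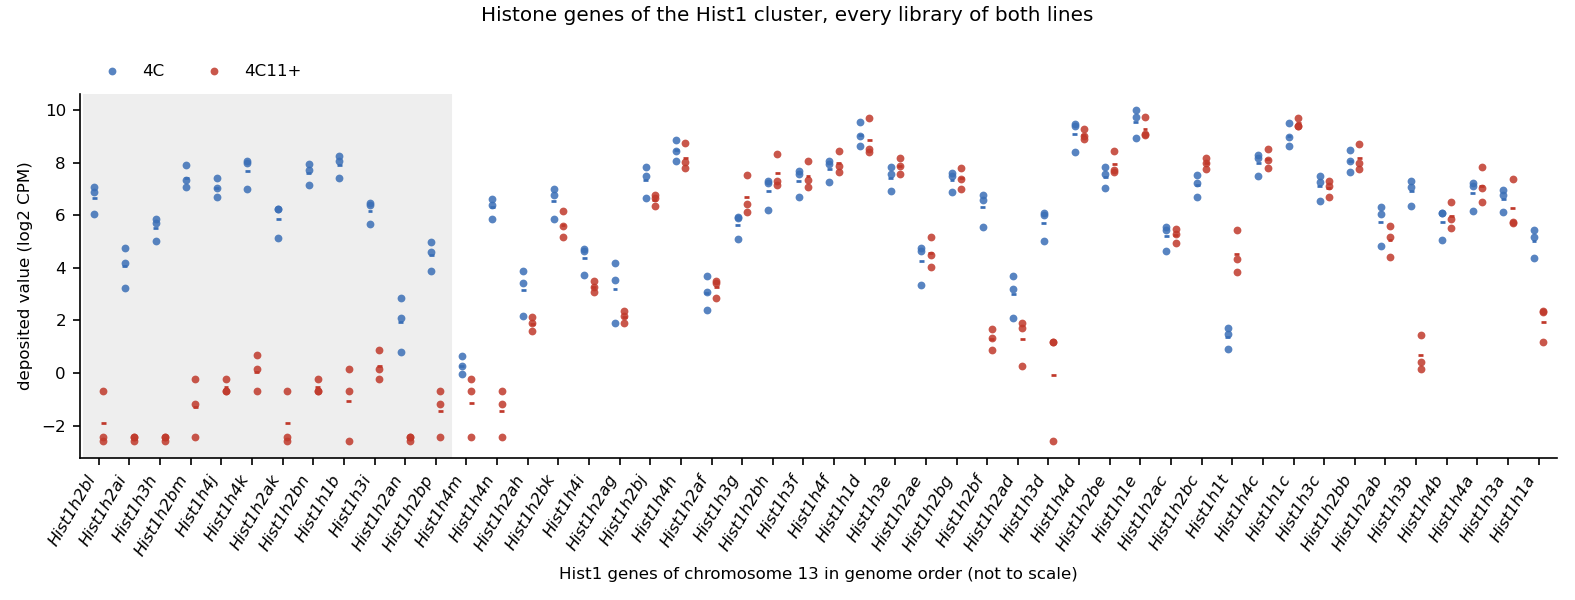
Log2 CPM of the measured histone genes of the Hist1 cluster in genome order (x axis, not to scale), with a point per library, bars at the line means, 4C in blue and 4C11+ in red. In the shaded run of 12 genes every 4C11+ point lies at or below 0.88, whereas to the right of it both lines overlap for most genes.

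In all, 23 runs of at least 4 neighboring measured genes had every gene called in 1 direction with a difference beyond 2, and 21 of them (114 genes) were lower in 4C11+ and 2 (8 genes) higher. Beside the histone and Cdkn2a runs they included families of related genes, namely keratins (*Krt7*, *Krt4*, *Krt8* and *Krt18*), 8 genes around *Ly6a* and *Ly6e*, all absent from 4C11+, and 2 Hox clusters. Runs of unrelated genes were present too, such as the 6 genes from *Asphd2* to *Cmklr1* (chr5:112384354-113650426), of which 5 were absent from 4C11+, with a median difference of -7.92. The higher runs were *Sort1* to *Celsr2* and *Hddc2* to *Gm10327*.

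The Hox genes, which specify position along the body axis, were looked at as a family after these runs were seen. Of 25 measured, 18 fell and 1 rose, and none rose without 4C replicate 3, 4C11+ replicate 1 or 4C11+ replicate 2. The 10 genes of the Hoxc run, *Hoxc13* to *Hoxc4* with the long noncoding RNA *Hotair*, had mean levels of 0.77 to 4.63 in 4C, and 9 were absent from 4C11+. *Hoxc11* had 4.83, 4.60 and 4.47 in 4C and 0 reads in all 3 4C11+ libraries, at least 4.61 lower. The Hoxa genes behaved less uniformly. *Hoxa10* had 5.54, 5.91 and 5.67 in 4C and 5.91, 6.20 and 5.55 in 4C11+ (0.18 ± 0.29, SE) and did not pass, while *Hoxa13* was at least 2.14 lower. In melan-a *Hoxa10* averaged -2.24, and in 4C11− 5.62.

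Among chromosomes with at least 100 measured genes, the median difference was farthest from that of all genes (0.08) on chromosome 12, with 0.80 over 514 genes, of which 35.2% rose and 5.8% fell. It was 0.51 on chromosome 10 and 0.50 on chromosome 6, and at the other end -0.45 on chromosome 14 (6.9% higher and 26.3% lower), -0.29 on X and -0.21 on chromosome 15. For each 4C11+ library set against the mean of 4C, the median on chromosome 12 was 0.75, 0.73 and 0.89, and on chromosome 14 -0.48, -0.46 and -0.43. The shift was of the same size in every library and was spread over many genes of these chromosomes. The difference of 4C11− minus 4C, which shares the 4C libraries, had medians of -0.01 on chromosome 12 and -0.06 on chromosome 14, and that of 4C11+ minus melan-a, which shares the 4C11+ libraries, 0.61 and -0.54. On chromosome 4, where 4C11+ minus 4C had a median of 0.27, 4C11− minus 4C had 0.59. The number of copies of a chromosome was not measured here.

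**Figure D5:**
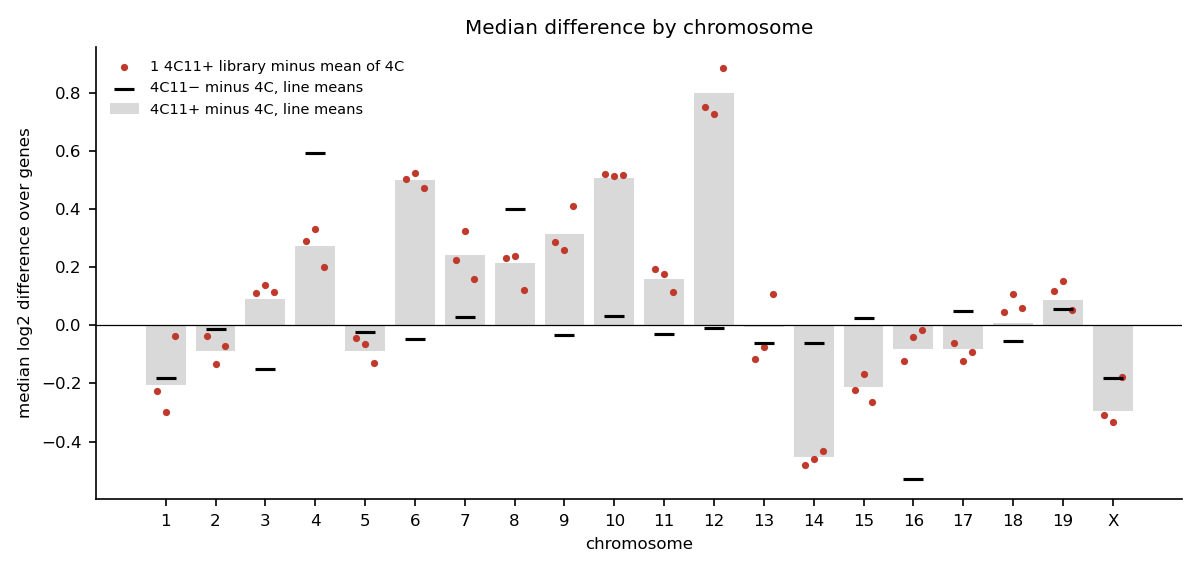
Median log2 difference over the measured genes of each chromosome with at least 100 genes, with bars for 4C11+ minus 4C (line means), red points for each 4C11+ library minus the mean of 4C, and black dashes for 4C11− minus 4C. The red points of chromosomes 6, 10 and 12 lie above 0.4 and those of chromosome 14 below -0.4, whereas the dashes of these chromosomes lie near 0.

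Of 75 nuclear genes of oxidative phosphorylation 36 rose and none fell, with a median of 0.64 (71 of 75 differences above 0). The counts rested on the full set of libraries. Leaving out 4C replicate 2, 4C replicate 3, 4C11+ replicate 1 or 4C11+ replicate 2 gave 16, 19, 18 and 18 higher genes, and leaving out 4C replicate 1 or 4C11+ replicate 3 gave 36 and 35. *Ndufs8* and *Sdhb*, subunits of complexes I and II, rose by 1.77 ± 0.31 and 1.71 ± 0.22 (SE). The mitochondrially encoded *mt-Co1* fell by 0.90 ± 0.25, and its call was lost without any one of 3 libraries.

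In glycolysis 12 of 24 rose and 3 fell (median 0.80). *Eno1* (enolase) rose from 9.91, 9.40 and 9.11 to 11.03, 11.11 and 11.27, *Hk1* and *Gpi1* rose by 1.53 ± 0.25 and 1.28 ± 0.22 (SE), and *Slc16a3*, a lactate transporter, rose by 2.54 ± 0.71. *Pfkm*, *Pfkp* and *Pdk1* fell by 1.42, 0.74 and 1.55. The glucose transporter *Slc2a1* (0.23 ± 0.27) did not pass. For the 77 cytosolic ribosomal proteins, 24 rose (31.2%) and 2 fell (2.6%), with a median of 0.36. The number of higher genes was 11 to 13 without 4C replicate 2, 4C replicate 3, 4C11+ replicate 1 or 4C11+ replicate 2. Ribosomal proteins have many processed pseudogenes that may take some of their reads, and 72 of 442 measured processed pseudogenes rose (16.3%, against 17.1% of all genes) and 7 fell.

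Of 45 lysosome genes 14 rose (31.1%) and 4 fell (8.9%), against 17.1% and 14.6% of all genes (median 0.18). There were 8 to 9 higher without 4C replicate 2, 4C11+ replicate 1 or 4C11+ replicate 2. *Hgsnat* and *Naglu*, enzymes of heparan sulfate breakdown, rose by 2.25 ± 0.26 and 2.18 ± 0.45 (SE). The proton pump subunit *Atp6v1e1* rose by 1.81 ± 0.22, and *Ctsl* (cathepsin L) and *Lamp2* fell by 1.82 and 1.25, and without 4C replicate 3 none of the 4 lower genes passed.

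Of 33 histone methyltransferases 2 rose and 5 fell, of 20 demethylases 2 rose and 3 fell, and of 28 genes of histone acetylation 3 rose and 5 fell, against 17.1% higher and 14.6% lower over all genes. These counts depended on single libraries. Without 4C replicate 2, 4C11+ replicate 1 or 4C11+ replicate 2, 2 methyltransferases were lower, no demethylase was higher, and 1 acetylation gene was higher and 2 were lower. Without 4C replicate 3, 2 methyltransferases and 3 acetylation genes were lower, and 1 demethylase was higher without 4C replicate 1 or 4C replicate 3. The largest differences of the acetylation list were in histone deacetylases. *Hdac9* was absent from 4C and at least 3.02 higher in 4C11+, and *Hdac7* fell from 7.11, 7.14 and 7.01 to 4.62, 4.36 and 4.10. *Kmt2a* (MLL1) had 6.73, 7.80 and 7.94 in 4C and 5.15, 5.04 and 5.95 in 4C11+ (-2.12 ± 0.40, SE, limma adjusted p = 0.0018), *Smyd5* rose by 2.00 ± 0.27, and the H3K4 demethylase *Kdm5c* fell by 1.88 ± 0.25. *Ezh2*, the methyltransferase of Polycomb, overlapped between the lines, with means of 6.25 ± 0.30 in 4C and 5.99 ± 0.98 in 4C11+ (SD, n = 3), and did not pass. Of the 13 DNA methylation genes 5 rose and none fell, among them the de novo methyltransferases *Dnmt3a* (4.80, 5.26 and 5.48 against 7.05, 6.64 and 7.63) and *Dnmt3b* (limma adjusted p = 0.0243). The maintenance enzyme *Dnmt1* (-0.17 ± 0.27) did not pass. Without 4C replicate 3, 4C11+ replicate 1 or 4C11+ replicate 2 the DNA methylation list had 3 higher genes. Of 17 measured imprinted genes 5 rose (29.4%) and 4 fell (23.5%). The higher ones numbered 2 without 4C replicate 2 or 4C11+ replicate 3 and 3 without 4C replicate 3. *Peg3* had 6.49, 4.92 and 5.90 in 4C and was absent from 4C11+, at least 5.74 lower, and *Igf2* was at least 4.30 lower. *Peg3* averaged 8.37 in 4C11− and 7.82 in melan-a.

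Melan-a, the differentiated melanocytes, against 4C11−, which is mesenchymal-like, uses none of these 6 libraries, although it comes from the same fit and PMA was in the medium of melan-a alone. In this comparison 863 genes (6.05%) were higher in melan-a and 1077 (7.55%) lower by the same limma test. Without 4C11− replicate 2 the higher genes numbered 554. With the libraries of these 2 lines alone, 291 genes were higher and 552 lower. The 2 melan-a libraries lay far apart for some genes, for example *Igfbp2* (7.99 and 0.75) and *Tyrp1* (8.51 and 12.63). They were close for others, such as *Car6* (7.96 and 8.26). Of the genes higher in 4C11+ than in 4C, 532 were also higher in melan-a, which is 21.8% of the first list and 61.6% of the second. Of the lower genes, 665 were lower in both, 31.9% of the first list and 61.7% of the second. Opposite calls were few, with 72 genes higher in 4C11+ and lower in melan-a and 21 the reverse. The differences had the same sign for 59.2% of all genes and for 87.1% of the 910 genes that passed in 4C11+ against 4C with a difference over 4.

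The lists differed in this respect. Of the melanin genes 9 were higher in both comparisons, of the matrix genes 17 and of the Hox genes 17 were lower in both. *Pmel* and *Tyr* were far lower in melan-a than in 4C11+, with 2.41 and 2.95 for *Pmel* in the 2 melan-a libraries and -0.25 and 1.29 for *Tyr*. In contrast, of the 36 oxidative phosphorylation genes that rose in 4C11+ none was higher in melan-a against 4C11−, where the list had a median of 0.05, and the p53 list had a median of -0.03, with none of the 13 higher genes higher there. None of the 12 genes of the Hist1 run and none of the 4 of the Cdkn2a run passed there, while all 10 of the Hoxc run and 8 of the 9 of the Hoxb run were lower in melan-a. *Wnt5a* reversed, with a difference of 5.50 for melan-a minus 4C11−.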

How the data were processed

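Total RNA of 4 mouse cell lines had been depleted of ribosomal RNA, made into stranded libraries and sequenced. The authors trimmed reads with Trimmomatic, aligned them to GRCm38 with STAR, counted them per gene with Rsubread, dropped genes that did not reach 1 CPM in 4 or more libraries and deposited log2 CPM values from voom in limma, 1 table per library. The 11 libraries share their highest value, as after quantile normalization. The values were used as deposited. Symbols and positions came from GENCODE vM21 (14255 of 14272 genes).

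The test was limma 3.58.1 (R 4.3.3) fitted to the 11 libraries together, with 1 coefficient a line, an intensity trend in the prior variance and p-values adjusted by Benjamini-Hochberg across the 14272 genes. Counts of members carry no test of the list. Over all genes 17.1% were higher and 14.6% lower, and a share near these is no result about a list. Reads were inferred from the steps of the low values, with the lowest value as 0 reads. On simulated data with 200 changed genes the fit recovered 0%, 55.5% and 91% at log2 differences of 1, 2 and 4, with 0, 7 and 7 unchanged genes called. In the data 4528 genes were called, with differences down to 0.49. The adjusted p depends on how many genes change, so these shares do not give the recovery in the data. The gene lists and the comparison were chosen with earlier results of these data known. Named genes are the 15 higher and 15 lower with the largest differences among called genes without overlap, and in each list up to 6 leading members and up to 6 called members with the largest differences. Other genes named, the Hox family and single histone genes were chosen after their values were seen. Some genes that the rule names are not reported here. Alternatives covered normalization, filters, the variance model, the libraries in the fit, a replicate block and each library left out.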

Additional observations from a re-analysis of the deposited data

How the results depend on the processing

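For 4C11+ against 4C, with 4528 genes called, 8 alternatives in normalization, filter, variance model or libraries gave 3607 to 5756, and fits that omitted 1 library gave 3117 to 4481. Quantile normalization (4522) and median centring (4524) are among the 8. The deposited libraries already shared their highest value, and their medians spanned 0.0106 on the log2 scale. These alternatives could thus hardly change the values and do not test the normalization. A test against a log2 difference of 1 (treat) gave 1581. Array weights gave 10651, by an estimate that stopped before converging in 2 fits, and 9458 when estimated gene by gene, an alternative chosen after seeing the data. For melan-a against 4C11− (1940 genes) the count was 1182 with array weights, 843 with the libraries of these 2 lines alone and 819 with treat, and 1366 to 2098 with 1 library left out. With array weights the differences of *Cnn1* (1.19), *Plk1* (-0.49), *Hist1h2bg* (-0.43) and *Hist1h2bb* (-0.52) changed sign. The cause was not tested. A replicate block gave 4898 genes for 4C11+ against 4C and 1876 for melan-a against 4C11−. Same-numbered libraries of 4C and 4C11+ deviated from their line means with correlations of 0.152, -0.208 and 0.147, and not every library correlated best with its own number. A pairing by number was thus not seen, and 3 libraries a line are too few to exclude it. Little can be said of genes near 3 reads, where a change is only a bound.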
